A study of Mus musculus with 4 samples.

Results

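Attachment of ubiquitin to proteins is reversible: E2 enzymes pass it on towards its target, and ubiquitin-specific proteases (USPs) cut it off again. These families were taken from the count table as every protein-coding mouse gene whose Ensembl ID carries a symbol that starts with Ube2 and a letter, or with Usp and a digit. The rule found 93 genes among the 49315 rows, 37 of them with a Ube2 symbol and 56 with a Usp symbol. It goes by name, so a few members are not enzymes of the kind the name says: Usp6nl encodes a GTPase-activating protein for Rab proteins, Usp39 a splicing factor without protease activity, Ube2cbp an E3-type ligase, and Ube2v1 and Ube2v2 E2 variants without the catalytic cysteine. Of the 93 genes, 76 passed the filter on low counts (32 E2 and 44 USP genes), 5 had counts but did not pass, and 12 had no count in any library.

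The 4 libraries come from mouse bone marrow-derived macrophages, that is, marrow cells grown for 7 days with L-cell conditioned medium, a source of macrophage growth factor. All 4 are labelled Lyz2Cre+, a genotype in which the lysozyme 2 locus drives Cre recombinase in myeloid cells. The labels name no floxed allele, and the sources used here give neither the age nor the number of the animals. For the M1 libraries (n = 2) the cells spent 24 hours in serum-free medium with 100 ng/ml lipopolysaccharide (LPS) and 50 ng/ml interferon gamma. For the M2 libraries (n = 2) they spent the same time with interleukin 4 and interleukin 13 at 10 ng/ml each. The study also used erlotinib, which inhibits the EGF receptor, and whether any of the 4 libraries had it is not stated. There is no library of unstimulated cells here, so each difference below is M1 relative to M2 and could come from either side.

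Ubiquitin is first activated by an E1 enzyme, then carried as a thioester on an E2, and finally transferred to a lysine of the substrate with the help of an E3 ligase. The E2 often sets which kind of chain is built, and some E2s carry ubiquitin-like proteins such as ISG15, NEDD8 or SUMO in place of ubiquitin. In macrophages, chains linked through K63 or head to tail (linear chains) assemble the signalling complexes downstream of Toll-like and TNF receptors, and ISG15 is attached to proteins by an interferon-induced cascade. USPs are the largest group of deubiquitinases and trim or remove chains at receptors, the proteasome, chromatin and signalling complexes.

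Total counts ran from 26806370 to 39506242 per library. Levels are given as CPM, counts scaled to the same library total, after TMM scaling, which corrects library sizes for composition. The TMM factors of the M1 libraries, 0.846 and 0.866, were below those of the M2 libraries, both 1.17. The 7 macrophage markers summed to 4953 to 5173 CPM in M1 and 4334 to 4444 in M2, with Adgre1 (F4/80) at 3055 and 3123 CPM in M1 against 1365 and 1292 in M2, and 5 of them were higher and 2 (Csf1r and Cd68) lower in M1. Lyz2, the locus that carries Cre and a gene that macrophages usually express strongly, was low for this cell type, at 25.3 and 27.3 CPM in M1 against 6.51 and 6.88 in M2. The 5 neutrophil markers summed to 8.79 to 9.40 CPM in M1 and 6.86 to 9.16 in M2. Of the 3 that were tested S100a8 was higher in M1 and S100a9 and Mpo were lower (median log2 change -2.84). The defining marker Ly6g was at 0 in 1 library of each group, and Elane was under 0.3 CPM in all 4. The 4 lymphocyte markers summed to 1.37 to 1.63 CPM in M1 and 0.868 to 1.02 in M2. All 4 stromal markers were higher in M2 (Col1a1, Col1a2, Col3a1 and Pdgfra), with a summed level of 96.7 to 100.0 CPM in M1 and 1131 to 1154 in M2. The 4 dendritic cell markers summed to 32.8 to 33.6 CPM in M1 and 2.11 to 2.52 in M2, mostly Xcr1 in M1 (30.9 and 31.9 CPM in M1 against 0.0638 and 0.0868 in M2). Of the 3 tested, Xcr1 and Flt3 were higher and Zbtb46 was lower in M1. These marker levels move with the comparison, and their part in the results was not tested. In bulk RNA, fewer cells of a type and less RNA per cell cannot be told apart.

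The largest rises in M1 in both families were those of the ISG15 pair, Usp18 and Ube2l6. On the other side the mitotic E2 gene Ube2c and the protease gene Usp2 were the lowest in M1 relative to M2, at low counts. Most other members differed by small amounts. With edgeR's quasi-likelihood test over all 14656 genes tested (adjusted p under 0.05), 21 of the 32 tested E2 genes were higher in M1, 8 were lower and 3 were not called. Of the 44 tested USP genes 23 were higher, 10 lower and 11 not called. Over all genes 77.2% were called, 37.5% as higher and 39.7% as lower in M1, so a call as such is common in this comparison. The same shares apply beside each list of genes counted below. The median log2 fold change (M1 minus M2) was 0.28 for the E2 genes and 0.17 for the USP genes, against -0.04 for all genes tested. A change of at least 1 log2 unit was called as higher in M1 in 4 E2 and 10 USP genes, together 18.4% of the tested members, near the 18.2% of all genes. Lower by that much were 3 E2 genes and 1 USP gene, together 5.26%, where 22.5% of all genes were. The M1 and M2 libraries did not overlap in 72 of the 76 members (94.7%), beside 88.5% of all genes. Sizes under 0.5 log2 units were found in 38 of the 76 members (50.0%) and in 37.3% of all genes.

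The direction of the small differences depended on the scaling. Relative to TMM, the median log2 difference of all genes moved by -0.45 with total counts and by -0.18 with upper quartiles. Under total counts 8 E2 genes were higher and 16 lower in M1, and 15 USP genes were higher and 23 lower. Of all genes 81.3% were then called, 22.8% higher and 58.5% lower. Those are the shares beside the total-count results given for the lists below. Under upper-quartile scaling 15 E2 genes were higher and 8 lower, and 19 USP genes were higher and 14 lower. Of all genes 78.3% were then called, 30.7% higher and 47.6% lower. Of the 21 E2 genes called as higher, 8 kept that call under TMM, RLE, upper-quartile and total-count scaling: Ube2e2, Ube2f, Ube2l6, Ube2m, Ube2n, Ube2o, Ube2s and Ube2z. Of the 23 USP genes 15 kept it: Usp3, Usp7, Usp12, Usp15, Usp18, Usp21, Usp25, Usp31, Usp32, Usp35, Usp37, Usp42, Usp47, Usp49 and Usp53. On the other side 6 of the 8 E2 genes (Ube2c, Ube2cbp, Ube2d1, Ube2h, Ube2q2 and Ube2t) and all 10 USP genes kept theirs under these 4 scalings. A test against changes of up to 2-fold (edgeR's glmTreat at log2 1) left few. These were Ube2l6, Ube2s, Ube2z, Usp12, Usp18, Usp25, Usp35, Usp37, Usp42 and Usp47 as higher in M1, and Ube2c, Ube2cbp and Usp2 as lower.

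**Figure D1:**
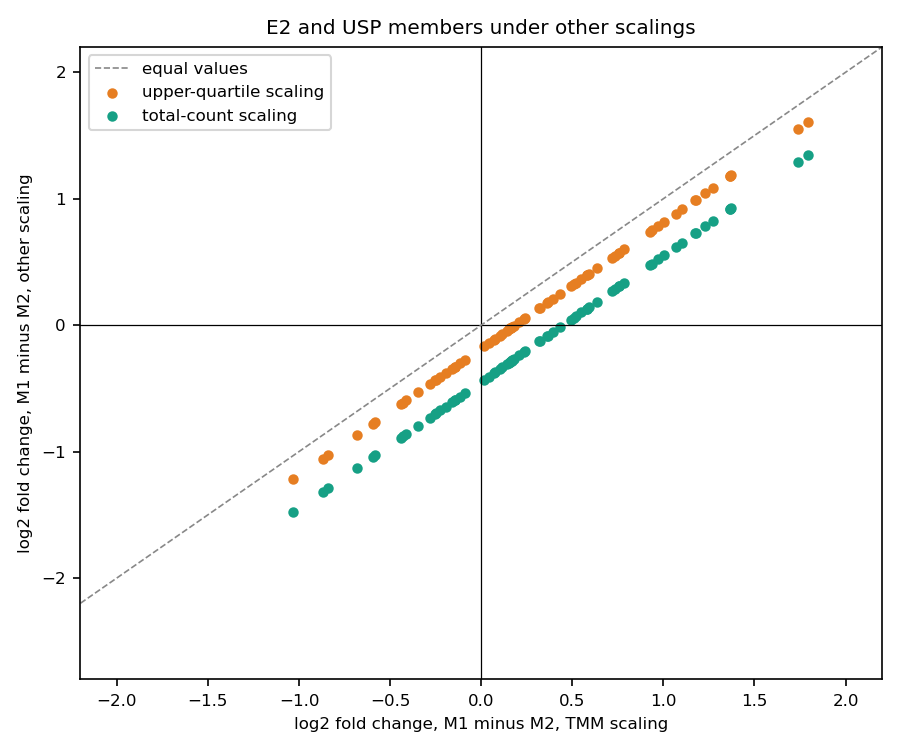
Log2 fold change (M1 minus M2) of E2 and USP members under upper-quartile scaling (orange) and total-count scaling (green), on the vertical axis, against TMM scaling on the horizontal axis; the dashed line marks equal values, and 71 of the 76 tested members lie within the axes. Both point sets run parallel below the line, and members with TMM values between 0 and about the shift fall under 0 with the other scalings.

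ISG15 is a ubiquitin-like protein induced by interferon, and its cascade runs from the E1 Uba7 over the E2 Ube2l6 to E3 ligases such as Herc6 in mice, while Usp18 takes ISG15 off again and also restrains type I interferon receptor signalling. Usp18 (ENSMUSG00000030107, chr6:121245906-121270917, plus strand, GRCm38) had 827 and 733 CPM in M1 and 10.2 and 7.97 in M2. Its M1 libraries stood far above both M2 libraries, with no overlap, and Usp18 was 87.1-fold higher in M1 (mean 779.9 ± 66.5 against 9.06 ± 1.55 CPM, SD, 2 libraries each; log2 change 6.44, SE 0.12, adjusted p = 3.72e-14). Ube2l6 (ENSMUSG00000027078, chr2:84798828-84810335, plus strand) had 259 and 258 CPM in M1 and 28.9 and 26.6 in M2. The M1 libraries were nearly equal and the groups did not overlap, with a 9.34-fold difference (log2 change 3.22, SE 0.069, adjusted p = 2.33e-15).

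All 6 genes of the ISG15 list were higher in M1, beside the 37.5% of all genes. Isg15 itself had 1149.7 and 1038 CPM in M1 and 6.64 and 4.86 in M2 (log2 change 7.60, SE 0.13, adjusted p = 4.61e-14). The ligase gene Herc6 had 675 and 579 CPM in M1 against 18.5 and 17.8 in M2 (log2 change 5.11, SE 0.092, adjusted p = 9.64e-16), and the E1 gene Uba7 had 385 and 356 CPM in M1 against 49.5 and 46.4 in M2 (log2 change 2.95, SE 0.072, adjusted p = 8.83e-15). Trim25, an E3 ligase of the RIG-I pathway, differed less, with 599 and 501 CPM in M1 against 203 and 194 in M2 (log2 change 1.47, adjusted p = 7.66e-10). The fitted change was larger for Usp18, which removes ISG15, than for Uba7, Ube2l6 and Herc6, which attach it. It was smaller for Usp18 than for Isg15 itself. The ratio of Usp18 to Ube2l6 counts within a library, which no scaling can move, was 3.19 and 2.84 in M1 and 0.352 and 0.300 in M2. M1 replicate 1 exceeded M1 replicate 2 in Usp18, Isg15, Herc6, Uba7 and Trim25.

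**Figure D2:**
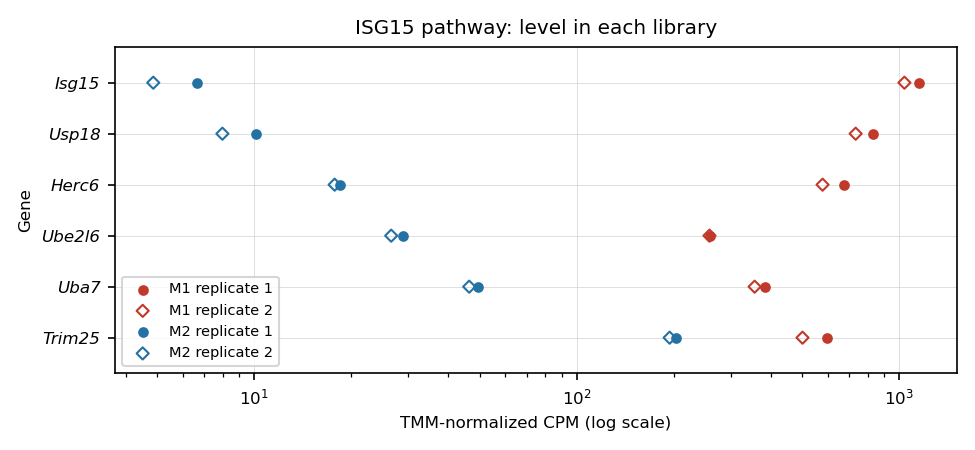
TMM-normalized CPM (horizontal log axis) of the 6 ISG15 pathway genes in each library, M1 in red and M2 in blue, with filled circles for replicate 1 and open diamonds for replicate 2. The M1 and M2 libraries are apart in every gene, most in Isg15 and Usp18 and least in Trim25.

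RefSeq promoter windows (250 bases before to 50 after an annotated start, GRCm38.p6) were found for 73 of the 93 members, 59 of them tested. They were searched on both strands for 3 kinds of motif. The core of the interferon-stimulated response element was searched as a pair of GAAA with any 2 bases between. The gamma-activated sequence was searched as TTCNNNGAA, which reads the same on both strands. The NF-kappaB sequences were GGGA followed by CTTTCC or by ATTTCC. No window was found for Usp18, Usp42 or Usp14, so these genes were not searched. The window of Ube2l6 is shown as that of the E2 gene with the largest rise. Those of Ube2z and Usp49 are shown as members over 1 log2 unit higher in M1 whose window holds a match, in capitals.
Ube2l6 (chr2:84798578-84798877, plus strand): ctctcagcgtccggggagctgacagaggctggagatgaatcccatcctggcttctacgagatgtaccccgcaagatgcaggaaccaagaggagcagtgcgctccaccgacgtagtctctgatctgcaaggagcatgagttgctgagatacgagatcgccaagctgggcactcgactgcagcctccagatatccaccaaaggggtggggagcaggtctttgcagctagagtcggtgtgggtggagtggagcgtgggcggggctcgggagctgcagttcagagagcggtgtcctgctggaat
Ube2z (chr11:96065315-96065614, minus strand): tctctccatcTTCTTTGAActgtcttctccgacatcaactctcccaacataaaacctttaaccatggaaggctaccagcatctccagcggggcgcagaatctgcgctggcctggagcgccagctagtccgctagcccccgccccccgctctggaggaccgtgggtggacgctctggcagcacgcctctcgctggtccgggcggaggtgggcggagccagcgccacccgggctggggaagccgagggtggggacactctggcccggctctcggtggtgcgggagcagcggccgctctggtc
Usp49 (chr17:47630440-47630739, plus strand): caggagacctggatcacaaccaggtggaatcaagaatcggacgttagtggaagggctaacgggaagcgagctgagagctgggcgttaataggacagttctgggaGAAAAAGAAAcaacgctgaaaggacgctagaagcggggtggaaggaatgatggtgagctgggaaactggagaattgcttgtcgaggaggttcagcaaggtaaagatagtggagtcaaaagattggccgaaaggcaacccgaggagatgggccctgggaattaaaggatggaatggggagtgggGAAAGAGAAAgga

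None of these motifs occurs in the Ube2l6 window. The Ube2z window holds the gamma-activated sequence as TTCTTTGAA from position -240. The Usp49 window holds the response element core as GAAAAAGAAA from -146 and as GAAAGAGAAA from position 38 after the start. Of 35 tested members higher in M1 with a window, 3 hold the gamma-activated sequence (Ube2d3, Ube2z and Usp27x) and 1 holds the response element core. Of 14 lower in M1, 1 holds the gamma-activated sequence (Ube2cbp) and 0 the core, and neither is found in the 10 that were not called. Of all 27025 genes with a window 9.55% hold the gamma-activated sequence and 3.99% the core, and of all 32851 windows 8.30% and 3.44%. The NF-kappaB sequences are in 0 of the 85 member windows, and in 0.155% and 0.0883% of all windows. A match is a match of letters only, and its absence says nothing of sites elsewhere.

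The 5 E2 genes on the list for ubiquitin-like modifiers, Ube2l6 included, were all higher in M1, or 4 higher and 1 lower under total-count scaling. Ube2m and Ube2f are the E2s of NEDD8, the modifier that switches on cullin-RING ligases. Ube2m (ENSMUSG00000005575, chr7:13035120-13038275, minus strand) had 209 and 222 CPM in M1 and 110.5 and 109 in M2 and Ube2f (ENSMUSG00000034343, chr1:91250304-91290337, plus strand) had 107 and 106 CPM in M1 against 50.6 and 50.9 in M2. In both genes the groups did not overlap. The test gave log2 change 0.97, SE 0.062, adjusted p = 1.26e-09 for Ube2m and log2 change 1.07, SE 0.059, adjusted p = 2.09e-10 for Ube2f. Ube2z, which is charged by the alternative E1 Uba6 and serves ubiquitin and the modifier FAT10, had 281 and 284 CPM in M1 and 112 and 107 in M2 (ENSMUSG00000014349, chr11:96047432-96065388, minus strand). It was 2.57-fold higher in M1 (log2 change 1.36, SE 0.062, adjusted p = 1.90e-11). Its E1 Uba6 differed by 0.19 log2 units (47.9 and 45.1 CPM in M1 against 41.8 and 40.0 in M2; adjusted p = 0.0188). Under total counts Uba6 was lower in M1 (-0.26, adjusted p = 0.00212), and its call ended without M2 replicate 1 (adjusted p = 0.0984) or M2 replicate 2 (0.264).

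Ube2n (UBC13) builds K63-linked chains together with Ube2v1 or Ube2v2, and Ube2l3 (UBCH7) works with the linear chain ligase and other RING-between-RING ligases. Ube2n (ENSMUSG00000074781, chr10:95515145-95545657, plus strand) had 109 and 107 CPM in M1 and 64.7 and 66.8 in M2, higher in M1 without overlap (log2 change 0.72, SE 0.059, adjusted p = 2.55e-08). Its partners did not follow that size. Ube2v2 had 11.0 and 11.4 CPM in M1 against 13.1 and 13.1 in M2 (log2 change -0.23, SE 0.095, adjusted p = 0.0417). That call ended without M1 replicate 1 (adjusted p = 0.0986), M2 replicate 1 (0.164) or M2 replicate 2 (0.169). Ube2v1 had 168 and 108 counts in M1 and 134 and 144 in M2 (log2 change 0.49, SE 0.18, adjusted p = 0.0238). The call ended without M1 replicate 1 (adjusted p = 0.170) or M2 replicate 2 (0.341) and under total-count scaling. Its value is also uncertain in that 69.1% of its exon bases lie in exons of other genes, most in the read-through gene Gm20431. Reads in shared exons may not have been counted. Ube2l3 had 168 and 161 CPM in M1 against 151 and 156 in M2 and was not called (log2 change 0.10, SE 0.061, adjusted p = 0.139), but was called as higher without M1 replicate 2 (adjusted p = 0.00982) and as lower under total counts (-0.35, adjusted p = 6.35e-05). Of its exons, 28.6% of bases overlap Ydjc on the other strand.

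Of the 19 genes of the K63 and linear chain list around these E2s, 15 were higher in M1, 2 lower and 2 not called. Under total counts 12 were higher and 5 lower. Over all genes 37.5% were higher and 39.7% lower, or 22.8% and 58.5% under total counts. The editing enzyme A20 (Tnfaip3), which ends NF-kappaB signalling, had 644 and 670.0 CPM in M1 and 42.0 and 39.2 in M2 (log2 change 4.02, SE 0.075, adjusted p = 5.12e-16). Birc3, an E3 ligase at TNF receptors, had 364 and 367 CPM in M1 against 38.6 and 35.1 in M2 (log2 change 3.31, adjusted p = 2.47e-15). Tnip1, which binds A20, had 409.8 and 421 CPM in M1 against 53.2 and 57.0 in M2 (log2 change 2.91, adjusted p = 6.68e-15). Cyld, a deubiquitinase of the USP fold with another name, differed by 1.22 (adjusted p = 6.80e-11). Of the linear chain ligase, Rnf31 (HOIP) differed by 2.09, Sharpin by 0.70 and Rbck1 by 0.15 log2 units. Rbck1 turned to -0.30 under total counts (adjusted p = 2.25e-04) and was not called without M2 replicate 1 (adjusted p = 0.203) or M2 replicate 2 (0.295). Otulin, the protease for linear chains, went the other way (44.9 and 44.3 CPM in M1 against 63.8 and 67.2 in M2; log2 change -0.56, SE 0.063, adjusted p = 1.09e-06).

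The E2s that start or extend ordinary ubiquitin chains differed less. In the list of 16 that holds them and the signalling E2s, 10 were higher, 4 lower and 2 not called, which became 2 higher and 9 lower under total-count scaling. Ube2d3, of the UBCH5 group that works with many E3 ligases, had the highest counts of the family, 502 and 478 CPM in M1 and 361 and 366 in M2 (log2 change 0.43, SE 0.065, adjusted p = 2.18e-05). Under total-count scaling this became -0.018 (adjusted p = 0.794). Its relative Ube2d1 was lower in M1, with 19.6 and 19.8 CPM in M1 against 28.2 and 30.7 in M2 (log2 change -0.58, SE 0.079, adjusted p = 7.25e-06). Ube2d2a differed by 0.24 log2 units (adjusted p = 0.00185, or 0.0709 without M2 replicate 1) and -0.21 under total counts.

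Of the related Ube2e genes, Ube2e2 was higher in M1 at a low level (7.04 and 6.39 CPM in M1 against 3.16 and 3.84 in M2; log2 change 0.92, SE 0.14, adjusted p = 3.05e-05). Ube2e1 differed by 0.17 (adjusted p = 0.0396). The call ended without M2 replicate 1 (0.470) or M2 replicate 2 (0.0835) and turned to -0.28 under total counts. Ube2e3 differed by -0.16 (adjusted p = 0.0403). That ended without M1 replicate 2 (0.0759), M2 replicate 1 (0.201) or M2 replicate 2 (0.122). Ube2h, an E2 of the CTLH (GID) ligase, was lower in M1 (43.9 and 42.6 CPM in M1 against 51.6 and 53.7 in M2; log2 change -0.28, SE 0.064, adjusted p = 9.48e-04). Ube2w, which adds ubiquitin to protein amino termini, had 37.2 and 38.8 CPM in M1 against 26.1 and 26.7 in M2 (log2 change 0.52, SE 0.070, adjusted p = 6.42e-06; 0.073 under total counts, adjusted p = 0.3597). Ube2r2 had 113 and 111 CPM in M1 against 104 and 109 in M2 and was not called (log2 change 0.078, SE 0.060, adjusted p = 0.247), but was called as lower under total counts (adjusted p = 3.24e-05). Of 5 E2-like genes outside the naming rule 4 were higher in M1 and 1 was not called (2 higher and 2 lower under total counts). Cdc34, a close relative of Ube2r2 and an E2 of cullin ligases, was higher in M1 (83.8 and 83.1 CPM in M1 against 48.9 and 46.7 in M2; log2 change 0.80, SE 0.061, adjusted p = 9.82e-09). Birc6, a giant protein with E2 and E3 activity, had 240.0 and 198 CPM in M1 against 101 and 101 in M2 (log2 change 1.12, SE 0.082, adjusted p = 4.85e-08).

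Among the long E2s, Ube2o, which acts as E2 and E3 in a single chain, was higher in M1 (32.4 and 37.5 CPM in M1 against 21.1 and 19.5 in M2; log2 change 0.78, SE 0.085, adjusted p = 6.82e-07). The pair Ube2q1 and Ube2q2 moved apart. Ube2q2 had 44.4 and 43.8 CPM in M1 and 89.1 and 91.4 in M2 (ENSMUSG00000032307, chr9:55148854-55207529, plus strand), lower in M1 without overlap (log2 change -1.03, SE 0.061, adjusted p = 4.60e-10). Ube2q1 had 166 and 160.0 CPM in M1 against 126 and 127 in M2 (log2 change 0.36, SE 0.060, adjusted p = 5.53e-05), which under total-count scaling was -0.084 (adjusted p = 0.182).

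The 5 E2 genes of degradation at the endoplasmic reticulum were all called as higher in M1, beside 37.5% of all genes, at modest size. Ube2j2 and Ube2j1, anchored in its membrane, differed by 0.58 (86.2 and 84.9 CPM in M1 against 57.2 and 57.4 in M2) and 0.32 (96.2 and 98.2 CPM in M1 against 77.8 and 78.1 in M2). Ube2g2, a partner of the ligase gp78, had 101 and 101 CPM in M1 against 67.0 and 71.0 in M2 (log2 change 0.55, SE 0.060, adjusted p = 7.11e-07). Ube2g1 differed by 0.21 and Ube2k by 0.32. None of these 5 calls held under total-count scaling, where Ube2g1 was lower in M1 (-0.24, adjusted p = 0.00351). Without M2 replicate 1 or M2 replicate 2 the adjusted p of Ube2g1 was 0.135 and 0.0790.

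The E2s of cell division and DNA repair did not move together. Ube2c (UBCH10) starts chains for the anaphase-promoting complex and Ube2s extends them. Ube2c (ENSMUSG00000001403, chr2:164769898-164778822, plus strand) had 1 and 6 counts in M1 and 83 and 132 in M2, that is 0.0343 and 0.244 CPM in M1 against 2.65 and 2.87 in M2. The M1 libraries were both below the M2 libraries and Ube2c was 20.6-fold lower in M1 (log2 change -4.37, SE 0.41, adjusted p = 1.33e-07). The M1 side of that fold rests on 7 counts. The fold was 11.2 without M1 replicate 1 and 73.2 without M1 replicate 2. For Ube2c 22.8% of the exon bases overlap Tnnc2 on the other strand. Ube2s (ENSMUSG00000060860, chr7:4794546-4812590, minus strand) went the other way, with 69.4 and 69.7 CPM in M1 and 27.3 and 26.8 in M2. Its libraries agreed closely within each group, and it was 2.58-fold higher in M1 (log2 change 1.36, SE 0.064, adjusted p = 2.68e-11).

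Ube2t, the E2 of the Fanconi anaemia pathway, was low in both groups and lower in M1 (1.27 and 1.10 CPM in M1 against 2.11 and 2.24 in M2; log2 change -0.87, SE 0.23, adjusted p = 0.00265). Ube2a and Ube2b, the mouse RAD6 genes that mark histone H2B and the clamp PCNA, had 49.7 and 50.2 CPM in M1 against 47.3 and 47.9 in M2 for Ube2a (adjusted p = 0.321, and 6.17e-05 as lower under total counts). For Ube2b the levels were 97.8 and 99.2 CPM in M1 against 82.9 and 84.7 in M2 (log2 change 0.23, SE 0.058, adjusted p = 0.00202). The Ube2b call ended without M2 replicate 1 (adjusted p = 0.0753) and became -0.21 under total counts. Of 16 proliferation markers 13 were lower in M1, beside 39.7% of all genes, and 3 were not called. Lower were Rrm2 (0.721 and 0.610 CPM in M1 against 5.20 and 5.06 in M2) and Cdc20 (0.343 and 0.691 against 3.70 and 4.25). Ccnb1 was lower too (0.789 and 0.976 CPM in M1 against 3.83 and 3.82 in M2). These markers moved with Ube2c and Ube2t and against Ube2s, and their part in those results was not tested. Ube2cbp, named for its binding to Ube2c, had 3 and 1 counts in M1 and 12 and 24 in M2 (log2 change -2.58, SE 0.62, adjusted p = 0.00143). It was 5.97-fold lower in M1 with all libraries, 10.5-fold without M1 replicate 1 and 4.36-fold without M1 replicate 2.

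**Figure D3:**
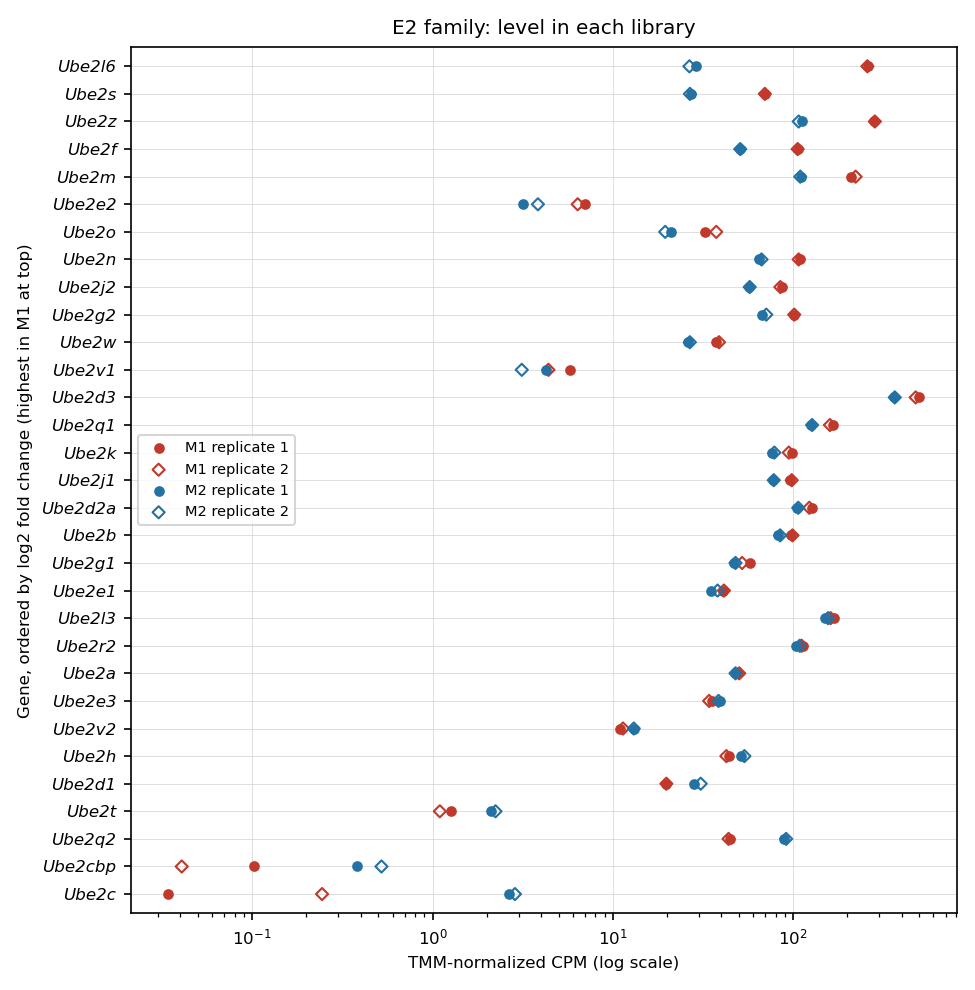
TMM-normalized CPM (horizontal log axis) of 31 of the 32 tested E2 genes in each library, M1 in red and M2 in blue, filled circles for replicate 1 and open diamonds for replicate 2, ordered by log2 fold change. Ube2l6 at the top and Ube2c at the bottom have the widest gaps between groups, and most genes between 20 and 200 CPM have small ones.

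Among USPs of innate immune signalling, Usp18 included, 7 of 10 were higher in M1, 2 lower and 1 not called. Under total counts 5 were higher and 3 lower. The shares of all genes were 37.5% higher and 39.7% lower, and 22.8% and 58.5% under total counts. Usp25, which acts on TRAF adaptors and on tankyrase, had 383 and 314 CPM in M1 and 101 and 100.3 in M2 (ENSMUSG00000022867, chr16:77013706-77116780, plus strand). Both M1 libraries were above the M2 libraries, but they differed from each other. The group difference was 3.47-fold (mean 349 ± 49.0 against 101 ± 0.447 CPM, SD, 2 libraries each; log2 change 1.79, SE 0.087, adjusted p = 7.50e-10). Usp15, a regulator of TGF-beta and RIG-I signalling, had 164 and 147 CPM in M1 and 72.1 and 72.6 in M2 (log2 change 1.10, SE 0.067, adjusted p = 6.13e-10). Usp31 had 50.9 and 52.1 CPM in M1 against 27.1 and 26.8 in M2 (log2 change 0.94, adjusted p = 4.24e-09). Usp21, which removes ubiquitin from RIP1 and histone H2A, had 31.3 and 34.4 CPM in M1 against 21.1 and 21.2 in M2 (log2 change 0.63, adjusted p = 2.18e-06).

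Smaller were the differences of Usp38 and Usp4. Usp38 had 41.6 and 37.5 CPM in M1 against 30.8 and 29.6 in M2 (log2 change 0.39, adjusted p = 1.72e-04; -0.055 under total counts), and 20.5% of its exon bases overlap Gm9725 on the other strand. Usp4 had 133 and 135 CPM in M1 against 121 and 120.4 in M2 (log2 change 0.15, SE 0.059, adjusted p = 0.0298). The call ended without M2 replicate 1 (adjusted p = 0.249) or M2 replicate 2 (0.271) and turned to -0.30 under total counts. Usp2, a protease known for circadian regulation and for stabilising MDM2 and cyclin D1, was the USP gene with the largest difference in the other direction. It had 17 and 12 counts in M1 and 138 and 189 in M2, or 0.583 and 0.488 CPM in M1 against 4.41 and 4.10 in M2. It was 7.81-fold lower in M1 (ENSMUSG00000032010, chr9:44067021-44095627, plus strand; log2 change -2.97, SE 0.23, adjusted p = 1.25e-08). Usp13 had 0.515 and 0.366 CPM in M1 against 0.383 and 0.543 in M2 and was not called (adjusted p = 0.843).

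USPs of the nucleus were measured for 13 of 15 listed genes. Of these, 8 were higher in M1, 2 lower and 3 not called, beside 37.5% of all genes higher and 39.7% lower. Under total counts 5 were higher and 5 lower, beside 22.8% and 58.5% of all genes. Usp37, which removes ubiquitin from cyclin A, had 36.2 and 32.8 CPM in M1 against 15.2 and 15.3 in M2 (log2 change 1.18, SE 0.080, adjusted p = 2.62e-09). Usp49, a histone H2B deubiquitinase, had 6.11 and 5.69 CPM in M1 against 2.75 and 2.34 in M2 (log2 change 1.23, SE 0.15, adjusted p = 2.98e-06). Of its exons, 52.3% of bases lie within exons of Gm20517 or Tomm6, so its level is uncertain. Usp7 (HAUSP), which stabilises MDM2 and p53, had 181 and 174 CPM in M1 and 122 and 115 in M2 (log2 change 0.59, SE 0.063, adjusted p = 4.72e-07). Usp3, a histone H2A deubiquitinase, had 55.5 and 60.2 CPM in M1 against 34.7 and 33.8 in M2 (log2 change 0.76, SE 0.068, adjusted p = 6.72e-08). Usp11 had 5.22 and 4.23 CPM in M1 against 2.87 and 2.76 in M2 (log2 change 0.76, adjusted p = 5.80e-04; 0.0911 under total counts). Usp16, also acting on H2A, differed by 0.51 (adjusted p = 7.79e-06; 0.451 under total counts).

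The SAGA complex holds a deubiquitinase module whose protease is Usp22 or, in other complexes, Usp27x or Usp51. Usp22 was lower in M1 (43.5 and 44.5 CPM in M1 against 51.1 and 53.6 in M2; log2 change -0.25, SE 0.064, adjusted p = 0.00230). Without M2 replicate 2 its adjusted p was 0.0511. Usp27x differed by 0.36 (adjusted p = 0.0475), and Usp51 had no count. The Usp27x call ended when any of the 4 libraries was left out (adjusted p from 0.0558 without M1 replicate 2 to 0.369 without M2 replicate 2). The module's partner Atxn7 was higher in M1 (63.2 and 59.2 CPM in M1 against 27.5 and 26.4 in M2; log2 change 1.19, adjusted p = 3.19e-10). So was Atxn7l3 (138 and 134 CPM in M1 against 69.3 and 70.4 in M2; log2 change 0.96, adjusted p = 7.77e-10). Usp48, which acts on histone H2A and RelA, was lower in M1 with 87.3 and 91.0 CPM in M1 and 136 and 133 in M2 (log2 change -0.59, SE 0.060, adjusted p = 2.83e-07). Usp1, the partner of Wdr48 in DNA repair, had 37.8 and 37.6 CPM in M1 against 42.1 and 41.4 in M2 (log2 change -0.15, SE 0.065, adjusted p = 0.0538). It was called as lower under upper-quartile (adjusted p = 2.46e-04) and total-count scaling (9.65e-07). Usp36 and Usp39 were not called (adjusted p = 0.875 and 0.0600), and Usp39 was called as higher without M1 replicate 1 (0.00285) and under RLE scaling (0.0314). Both were called as lower under total counts (6.67e-04 and 0.00320).

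USPs at receptors and endosomes divided, with 3 of 7 higher in M1, 2 lower and 2 not called (2 higher and 5 lower under total counts). Usp12, which with its WD-repeat partners acts on T cell and androgen receptors, had 140.4 and 122 CPM in M1 and 55.2 and 53.6 in M2 (ENSMUSG00000029640, chr5:146734809-146795006, minus strand). It was 2.41-fold higher in M1, without overlap (log2 change 1.27, SE 0.072, adjusted p = 4.62e-10). Its close relative Usp46, which controls glutamate receptors, was lower in M1 (7.00 and 8.09 CPM in M1 against 14.3 and 12.7 in M2; log2 change -0.84, SE 0.11, adjusted p = 6.86e-06). Usp32, a membrane-anchored enzyme of endosomal traffic, had 77.2 and 68.8 CPM in M1 against 43.5 and 44.3 in M2 (log2 change 0.74, SE 0.068, adjusted p = 1.06e-07).

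Usp8, which with Stam and Hgs sorts the EGF receptor at endosomes, had 194 and 181 CPM in M1 and 170.0 and 164 in M2. Its difference was small (log2 change 0.17, SE 0.063, adjusted p = 0.0265). The call ended without M2 replicate 1 (adjusted p = 0.152) or M2 replicate 2 (0.317), and turned to -0.28 under total counts. Hgs had 134 and 136 CPM in M1 against 78.3 and 77.1 in M2 (log2 change 0.80, SE 0.059, adjusted p = 6.91e-09). Usp9x, an X-linked protease with many substrates, had 164 and 130.3 CPM in M1 and 134 and 126 in M2. Here M1 replicate 2 fell between the M2 libraries, so the groups overlapped. Usp9x was not called (log2 change 0.18, SE 0.098, adjusted p = 0.118). Without M1 replicate 2 it was called as higher in M1 (adjusted p = 1.51e-11, log2 change 0.34). Under total counts it was called as lower (-0.27, adjusted p = 0.0157). Usp6nl had 35.7 and 30.4 CPM in M1 against 29.6 and 29.3 in M2 (adjusted p = 0.0680). It was called as higher without M1 replicate 2 (adjusted p = 1.49e-04) and under RLE scaling (0.0394), and as lower under total counts (0.00488).

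In the list of USPs at the proteasome, mitochondria and endoplasmic reticulum, 2 of 7 were higher in M1, 3 lower and 2 not called (1 higher and 6 lower under total counts). Usp14, the reversible deubiquitinase of the 26S proteasome, had 64.4 and 64.8 CPM in M1 and 103 and 104 in M2 (ENSMUSG00000047879, chr18:9993066-10045119, minus strand). It was 1.60-fold lower in M1 with closely agreeing libraries (log2 change -0.68, SE 0.059, adjusted p = 4.49e-08). Of its exons, 26.0% of bases overlap Thoc1 on the other strand. Psmd14, another deubiquitinase of the proteasome, was higher in M1 (135 and 133 CPM in M1 against 72.4 and 75.6 in M2). Its log2 change was 0.86 (SE 0.060, adjusted p = 3.44e-09). Usp5, which recycles free ubiquitin chains, had 132 and 133 CPM in M1 against 123 and 117 in M2 (log2 change 0.14, SE 0.061, adjusted p = 0.0452). Its call ended without M2 replicate 1 (adjusted p = 0.166) or M2 replicate 2 (0.478) and turned to -0.31 under total counts.

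The mitochondrial outer membrane enzyme Usp30, which opposes Parkin, was lower in M1 (14.5 and 15.3 CPM in M1 against 18.9 and 18.9 in M2; log2 change -0.35, SE 0.086, adjusted p = 0.00186). Usp35, described at mitochondria too, was higher (17.9 and 18.3 CPM in M1 against 7.25 and 6.77 in M2; log2 change 1.37, SE 0.098, adjusted p = 4.47e-09). Usp19, with a form anchored in the endoplasmic reticulum, had 167 and 163 CPM in M1 against 152 and 152 in M2 (log2 change 0.12, SE 0.060, adjusted p = 0.0887). It was called as higher without M1 replicate 2 (adjusted p = 0.00977) and under RLE scaling (0.0440), and as lower under total counts (7.96e-05). Usp20 was lower in M1 (14.9 and 14.0 CPM in M1 against 18.5 and 16.1 in M2; log2 change -0.25, SE 0.097, adjusted p = 0.0303), but not without M1 replicate 2 (adjusted p = 0.0531) or M2 replicate 1 (0.311). Usp33, at 35.2 and 30.9 CPM in M1 against 35.8 and 37.4 in M2, was called as lower without M1 replicate 1 (adjusted p = 0.00188, against 0.0933 with all 4 libraries), and under upper-quartile (7.43e-04) and total-count scaling (3.59e-06). Of its exons, 24.4% of bases overlap genes on the other strand.

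Of the USPs on none of these lists, Usp42, which can deubiquitinate p53, had the largest difference, 50.6 and 49.1 CPM in M1 and 15.2 and 14.7 in M2 (ENSMUSG00000051306, chr5:143710325-143732280, minus strand). Its groups were far apart relative to their spread (3.34-fold; log2 change 1.74, SE 0.072, adjusted p = 5.76e-12). Usp47, which acts on DNA polymerase beta and beta-catenin, had 212 and 207 CPM in M1 and 95.3 and 90.3 in M2 (log2 change 1.17, SE 0.062, adjusted p = 1.16e-10). Usp53, found at tight junctions, had 9.34 and 9.44 CPM in M1 against 4.92 and 4.49 in M2 (log2 change 1.00, adjusted p = 1.77e-06). Usp40 differed by 0.58 (adjusted p = 1.58e-06; 0.0964 under total counts). Lower in M1 were Usp10, which deubiquitinates p53 and binds the stress granule protein G3bp1 (28.0 and 29.0 CPM in M1 against 39.5 and 36.4 in M2; log2 change -0.41, SE 0.073, adjusted p = 1.06e-04), and Usp28, which stabilises MYC (13.5 and 13.6 CPM in M1 against 18.6 and 17.9 in M2; log2 change -0.43, adjusted p = 4.09e-04). Usp45 was lower too (28.0 and 27.2 CPM in M1 against 38.6 and 36.5 in M2; log2 change -0.44, adjusted p = 4.06e-05). The large proteins Usp24 and Usp34 and the gene Usp54 were not called (log2 fold changes -0.12, 0.04 and -0.19). Each of these 3 was called when 1 M1 library was left out, Usp24 and Usp54 as lower without replicate 1 (adjusted p = 0.0161 and 0.00755) and Usp34 as higher without replicate 2 (0.0187). With all 4 libraries, upper-quartile scaling called Usp24 (adjusted p = 2.44e-04) and Usp54 (0.0105) as lower. Total counts called all 3 as lower (Usp24 6.36e-07, Usp34 8.23e-05 and Usp54 2.38e-04).

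**Figure D4:**
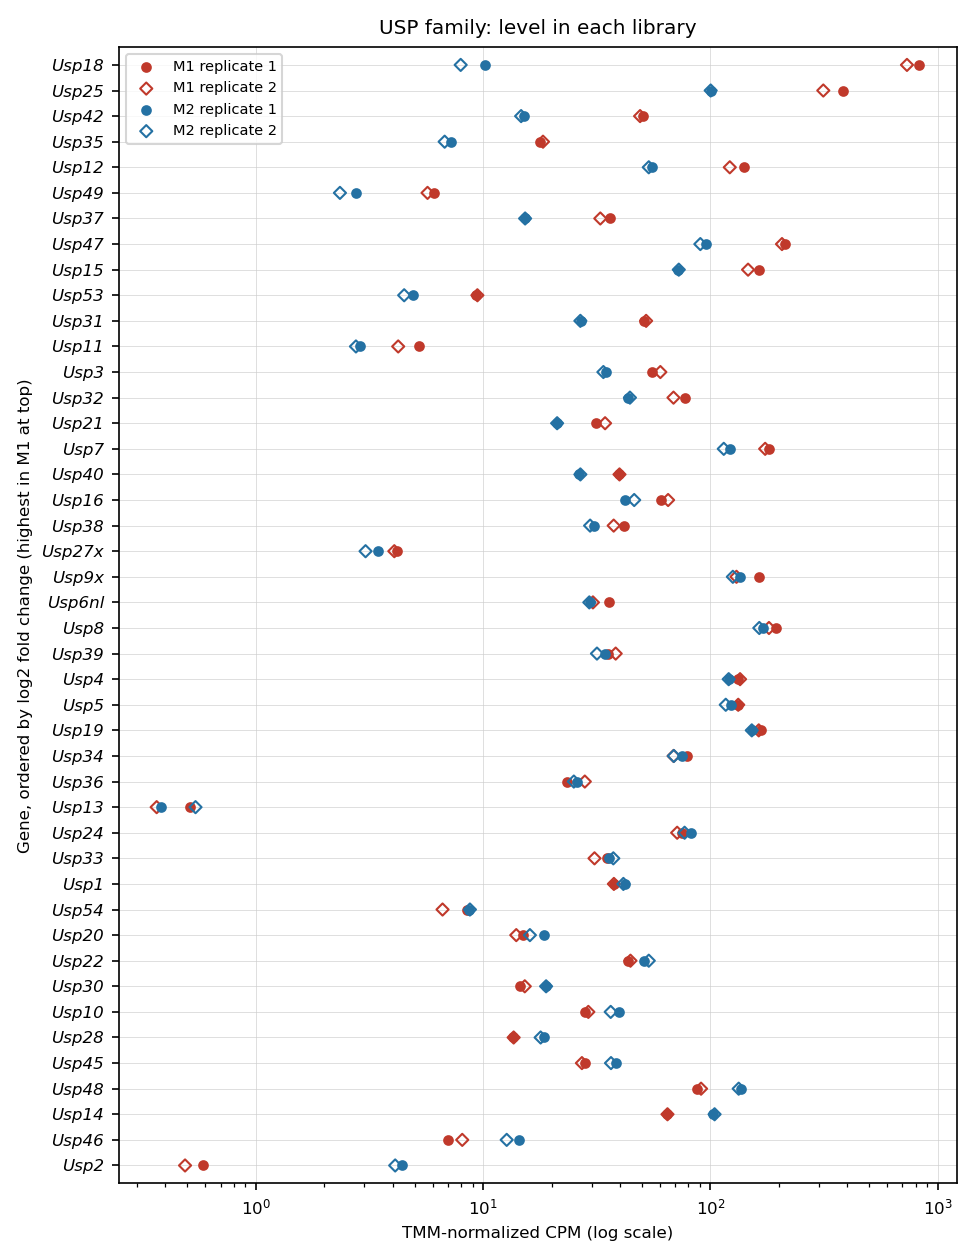
TMM-normalized CPM (horizontal log axis) of the 44 tested USP genes in each library, M1 in red and M2 in blue, filled circles for replicate 1 and open diamonds for replicate 2, ordered by log2 fold change. Usp18 at the top has the widest gap between groups, and Usp2 at the bottom is higher in M2. The M1 replicates of Usp25, Usp12 and Usp9x are visibly apart, as are those of some genes at lower levels, such as Usp13 and Usp54.

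Close relatives within the families were compared through the ratio of their counts in each library, which is free of any scaling. The ratio of Usp12 to Usp46 was 20.1 and 15.0 in M1 and 3.85 and 4.22 in M2, a 4.31-fold shift. Usp25 to Usp28 gave 28.4 and 23.0 in M1 and 5.42 and 5.60 in M2, a 4.64-fold shift. Usp15 to Usp4 gave 1.23 and 1.08 in M1 and 0.596 and 0.603 in M2. In all 3 pairs the M1 ratios lay above both M2 ratios, so the balance within each pair differed between the groups. Ube2l6 to Ube2l3 was 1.54 and 1.60 in M1 and 0.191 and 0.170 in M2, so that the ISG15 enzyme had more counts than its ubiquitin relative in M1 and fewer in M2.

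The ratio of Ube2q1 to Ube2q2 was 3.75 and 3.65 in M1 and 1.42 and 1.39 in M2, and that of Ube2d3 to Ube2d1 25.6 and 24.1 in M1 and 12.8 and 11.9 in M2. These E2 pairs were again apart between groups. Shifts were smaller in other pairs, at 0.58 log2 units for Usp47 to Usp7, -0.35 for Ube2g1 to Ube2g2 and -0.26 for Ube2j1 to Ube2j2. Ube2f to Ube2m was 0.511 and 0.477 in M1 and 0.458 and 0.465 in M2, a shift of 0.097 log2 units, and Ube2a to Ube2b was 0.508 and 0.506 in M1 and 0.571 and 0.566 in M2, a shift of -0.16. Usp33 to Usp20 was 2.36 and 2.21 in M1 and 1.94 and 2.33 in M2, the only pair computed whose groups overlapped. With 2 libraries against 2 the exact two-sided permutation test cannot give less than 0.333, the value it gave for 12 of the 13 ratios computed, and it gave 0.667 for Usp33 to Usp20.

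Levels between genes were compared per length, as TPM (counts over the length of all annotated exons, scaled to one total per library), for order within a group only. In M1 the highest E2 gene was Ube2l6 (348 and 347 TPM), followed by Ube2m (238 and 253 TPM), Ube2z (189 and 191 TPM), Ube2b (124 and 125 TPM) and Ube2g2 (111 and 112 TPM). In M2 the order was Ube2m (179 and 175 TPM), Ube2b (149 and 149.8 TPM), Ube2g2 (105 and 109.8 TPM), Ube2z (107 and 101 TPM) and Ube2l3 (98.5 and 101 TPM), with Ube2l6 at place 14. In that order Ube2g2 and Ube2z overlapped in M2, and Ube2z and Ube2l3 lay closer than the spread of Ube2z, while the first 5 in M1 did not overlap.

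Usp18 led the USP genes in M1 (796 and 705 TPM), ahead of Usp25 (198 and 162 TPM) and Usp8 (124 and 116 TPM). In M2 the first were Usp8 (155 and 147 TPM), Usp5 (102 and 95.1 TPM) and Usp19 (82.4 and 81.2 TPM), and Usp18 came at place 28. Of the summed TPM of all USP members, Usp18 made up 40.8% and 39.4% in the M1 libraries and 1.15% and 0.927% in the M2 libraries. Ube2l6 made up 18.1% and 18.0% of the E2 sum in M1 and 3.28% and 2.98% in M2. With lengths of the longest annotated transcript in place of all exons, 9 of the 10 highest members were the same.

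**Figure D5:**
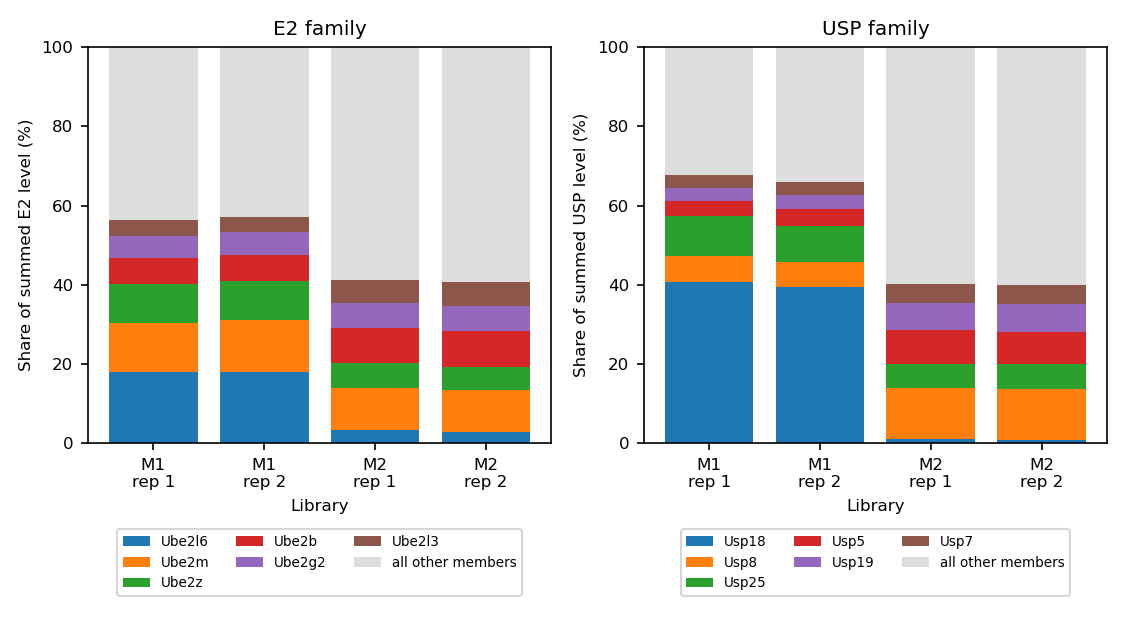
Share (%) of the summed level per length (TPM) of all E2 members (left) and all USP members (right) taken by the 6 members with the highest share in any library, in each library; grey stands for all other members. Usp18 fills 40.8% and 39.4% of the USP bar in M1 and about 1% in M2, and Ube2l6 18.1% and 18.0% of the E2 bar in M1 and about 3% in M2.

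The genes that supply these enzymes differed as well. Of the 6 E1 and ubiquitin genes, 4 were higher and 2 lower in M1, or 3 and 3 under total counts. The stress-inducible polyubiquitin gene Ubb was higher (987 and 955 CPM in M1 against 452 and 454 in M2; log2 change 1.10, SE 0.067, adjusted p = 6.96e-10). Rps27a, which encodes ubiquitin joined to a ribosomal protein, was lower (236 and 271 CPM in M1 against 387 and 415 in M2; log2 change -0.66, SE 0.076, adjusted p = 1.50e-06). The E1 Uba1 had 439 and 406 CPM in M1 against 282 and 280.2 in M2 (log2 change 0.59, SE 0.066, adjusted p = 9.30e-07).

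In the NEDD8 list of 20 genes, 11 were higher in M1, 3 lower and 6 not called (5 higher and 13 lower under total counts). Beside Ube2m and Ube2f, the E3 gene Dcun1d3 (24.2 and 22.3 CPM in M1 against 10.7 and 11.2 in M2; log2 change 1.09) and the cullin Cul2 (90.7 and 90.2 CPM in M1 against 42.9 and 42.4 in M2; 1.08) were higher. The NEDD8 protease Senp8 (4.53 and 3.95 CPM in M1 against 6.99 and 7.66 in M2; -0.79) and Cul4a (75.1 and 74.7 CPM in M1 against 100.1 and 107 in M2; -0.47) were lower. The E1 subunits of NEDD8, Nae1 and Uba3, were not called (adjusted p = 0.933 and 0.155). Total counts called both as lower (2.72e-05 and 1.61e-04). Upper-quartile scaling called Nae1 as lower (log2 change -0.19, adjusted p = 0.0204). The log2 change of Uba3 was 0.11 with all 4 libraries, 0.18 without M1 replicate 2 and 0.034 without M1 replicate 1. In the SUMO list of 17, 8 were higher, 2 lower and 7 not called (2 higher and 10 lower under total counts). The largest rises were those of the SUMO protease Senp1 (59.6 and 57.6 CPM in M1 against 26.5 and 25.0 in M2; 1.19) and the nuclear pore ligase Ranbp2 (310.3 and 248 CPM in M1 against 139 and 129 in M2; 1.06). The E1 subunit Sae1 was lower (44.3 and 45.5 CPM in M1 against 57.4 and 60.4 in M2; -0.39). The medians of the NEDD8 and SUMO lists were 0.23 and 0.12 log2 units, against -0.04 for all genes. Beside both lists stand all genes, of which 37.5% were higher and 39.7% lower, or 22.8% and 58.5% under total counts.

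The list of deubiquitinases outside the naming rule is mostly of other families but includes Cyld, which has the USP fold. It shares Cyld, Tnfaip3 and Otulin with the K63 and linear chain list. Of its 33 genes 32 were tested. Of these, 17 were higher in M1, 8 lower and 7 not called, beside 37.5% of all genes higher and 39.7% lower. Under total counts 9 were higher and 18 lower, beside 22.8% and 58.5% of all genes. Zup1, a K63-specific protease, had 121 and 117 CPM in M1 and 14.7 and 12.8 in M2 (log2 change 3.12, SE 0.076, adjusted p = 8.86e-15). Otud1 had 87.9 and 95.1 CPM in M1 against 16.1 and 15.6 in M2 (log2 change 2.53, SE 0.071, adjusted p = 4.96e-14). The median of this list was 0.23 log2 units. Higher in M2 were Mindy1, a protease of long K48 chains (52.3 and 54.1 CPM in M1 against 132 and 132 in M2; log2 change -1.31, SE 0.060, adjusted p = 2.06e-11), and Atxn3, the Machado-Joseph disease protein (29.7 and 32.0 CPM in M1 against 75.6 and 72.7 in M2; log2 change -1.27, SE 0.067, adjusted p = 1.21e-10). So was Stambpl1 (7.17 and 6.71 CPM in M1 against 14.1 and 14.8 in M2; -1.06, adjusted p = 2.01e-07). Of 12 partner proteins of USPs, 8 were higher in M1, 1 (G3bp1, at -0.18) lower and 3 not called (4 higher and 5 lower under total counts). The call of G3bp1 ended without M1 replicate 1 (adjusted p = 0.0896) or M2 replicate 1 (0.143).

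The 17 members that were not tested had few counts or none. No count was found for Ube2d2b, Ube2dnl1, Ube2dnl2, Ube2u, Usp17la, Usp17lb, Usp17lc, Usp17ld, Usp17le, Usp43, Usp51 and Usp9y. Copies of the Usp17l group are near-identical, so reads from them might not have been assigned to a single gene. Usp26 had 0 counts in M1 and 4 in M2, Ube2ql1 0 and 1, and Usp29 and Usp44 1 and 1. Usp50, with 18 counts in M1 and 13 in M2, also stayed under the filter.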

How the data were processed

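Poly(A) RNA of 2 M1 and 2 M2 libraries was sequenced as paired 150-base reads from a kit that does not mark strand, per the labels' protocols. Trimmomatic 0.36 and STAR 2.5.2b, Subread 1.5.2 with featureCounts, and also DESeq and DESeq2, are named in the submitters' processing notes, with build GRCm38 but no settings. As whole numbers without normalization, the authors deposited counts per gene. Their comparison table, which carries symbols without gene IDs, was not used here.

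IDs were matched to GENCODE vM21 (49056 of 49315 had a symbol). All genes were fitted together with edgeR 4.0.16 in R 4.3.3: filterByExpr (count minimum 10, total 15), TMM, robust quasi-likelihood F test (two-sided), and calls under 0.05 after Benjamini-Hochberg adjustment. Fold changes are log2, M1 minus M2, and SE is the size of the log2 fold change over the square root of F. The fit was also run on simulated data in which few genes changed, in random directions. That run could not test the choice of scaling. Alternatives were scaling by RLE, upper quartiles, total counts or TMM computed with the top 50 genes removed, filtering at 5 CPM in 2 libraries or not at all, DESeq2 1.42.0, limma-voom (limma 3.58.1), a non-robust spread, glmTreat and each library left out. Replicate numbers follow accession order and pair nothing. The labels do not say that replicates are separate cultures or animals, so a p-value reflects only how far these libraries scatter, possibly for technical reasons. Reads from overlapping or antisense genes cannot be told apart.

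Members, lists, pairs and tests were chosen with earlier results of these data known. Values were printed for fixed members, the 10 E2 and 15 USP genes with the largest called change and the 5 per family highest per length, for members without a count in 1 group, and for up to 3 called genes each way per list. Some genes that the rule names are included in the counts but not reported here by name. Of the members the rule does not name, all tested ones are given too, chosen after their values were seen, as were Psmd14, Uba6, Nae1, Uba3, Trim25, Rnf31, Sharpin and Rbck1.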

Additional observations from a re-analysis of the deposited data

How the results depend on the processing

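Scaling changed many directions. Under total counts 3342 genes were higher in M1 in place of 5495, with 8 E2 genes higher and 16 lower and 15 USP genes higher and 23 lower in place of 21, 8, 23 and 10. Among the genes reported here it turned the log2 difference of Ube2a (-0.38), Ube2b (-0.21), Ube2d2a (-0.21), Ube2d3 (-0.018), Ube2e1 (-0.28), Ube2g1 (-0.24), Ube2j1 (-0.13), Ube2k (-0.13), Ube2l3 (-0.35), Ube2q1 (-0.084), Ube2r2 (-0.37), Ufc1 (-0.16), Usp4 (-0.30), Usp5 (-0.31), Usp6nl (-0.28), Usp8 (-0.28), Usp9x (-0.27), Usp19 (-0.33), Usp27x (-0.089), Usp34 (-0.41), Usp36 (-0.43), Usp38 (-0.055) and Usp39 (-0.29). Upper-quartile scaling turned 4 reported members called under TMM, Ube2e1 (-0.017), Usp4 (-0.033), Usp5 (-0.043) and Usp8 (-0.019). It also turned Ube2a (-0.12), Ube2l3 (-0.082), Ube2r2 (-0.11), Usp6nl (-0.015), Usp9x (-0.0038), Usp19 (-0.068), Usp34 (-0.14), Usp36 (-0.17) and Usp39 (-0.024), which neither scaling called. Genes of the wider pathway turned too, among them Uba6 (-0.26) and Rbck1 (-0.30) under total counts and Rbck1 (-0.034) under upper quartiles. These scalings shift every gene by their own construction, and which of them is nearer to the RNA per cell was not tested. A minimum of 5 CPM in 2 libraries left 5 E2 genes lower, since fewer were tested. The test beyond 1 log2 unit asks for more and called 2163 genes higher and 2677 lower, 3 and 2 E2 genes, and 7 and 1 USP genes. Leaving out 1 library gave 16 to 22 E2 genes higher and 6 to 7 lower, 19 to 26 USP genes higher and 9 to 13 lower, and 4936 to 5616 genes higher and 5231 to 5909 lower. Of the 76 tested members 38 kept their call under every alternative but the test beyond 1 log2 unit, and 14 under all. An alternative whose filter left a member out was not counted for it. Usp13 stayed uncalled, but its sign changed (log2 change -0.092 with all 4 libraries, 0.12 without M1 replicate 2). Of the members called by the main test, DESeq2 did not call Ube2e1, Ube2e3, Ube2v1, Ube2v2, Usp5, Usp20 and Usp27x. No paired analysis was possible because the labels give the libraries no shared replicate numbers. With 2 libraries a group the spread is measured poorly, and for Ube2c, Ube2cbp and Usp2 low counts limit the size of the fold.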

Other observations

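The replicates of a group also differed in these families. In M1, 18 of 44 USP genes and 13 of 32 E2 genes were higher in replicate 2 than in replicate 1, beside 46.4% of all genes. In M2, 12 of 44 USP genes and 24 of 32 E2 genes were higher in replicate 2, beside 50.1% of all genes. The median gap largest in size was -0.045 log2 units, for the USP genes in M2. In a median of signed gaps, however, genes higher and lower in replicate 2 cancel. Gaps of single genes could be larger, as for Ube2v1 (-0.39 log2 units in M1 and -0.45 in M2) and Usp9x (-0.33 and -0.099). The pseudogene Ube2d-ps had 395 and 346 counts in M1 and 373 and 514 in M2.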
